A study of Arabidopsis thaliana with 13 samples.

Results

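WES1 and GH3.3 are GH3 acyl acid amido synthetases of Arabidopsis thaliana that join the auxin indole-3-acetic acid to amino acids. They were chosen by name as markers of auxin response, with earlier results of these data known. WES1 was read through probe set 253908_at (locus AT4G27260) and GH3.3 through probe set 245076_at (locus AT2G23170). These 2 genes stand among 22746 measured probe sets, of which 15922 had enough signal to be tested, and both passed that filter. Signals came from Affymetrix arrays of whole seedlings grown in liquid medium. The groups were 35S::CKX1 seedlings after 15 min of the cytokinin 6-benzyl adenine (BA, 4 arrays), 35S::CKX1 seedlings with solvent (3 arrays), Col-0 seedlings with solvent (2 arrays), Col-0 after 15 min of BA (2 arrays) and Col-0 after 120 min of BA (2 arrays). The 35S::CKX1 line is a transgenic that overexpresses a cytokinin oxidase, which breaks cytokinins down, from a viral promoter active in most tissues. The labels do not say whether it is 1 line or several. Control seedlings stood in solvent for 2 h, as long as the later BA treatment but longer than the 15 min one. The labels state 6 days of growth only for BA-treated Col-0. Col-0 120 min array 1 is called 120 min of BA by its title and description, but the control solution is given as its source.

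Auxin acts through TIR1/AFB receptors, which mark Aux/IAA repressors for destruction and so free auxin response factors to switch on early genes. GH3 genes are among these early genes. Most amino acid conjugates of auxin are inactive or on the way to breakdown, so GH3 enzymes lower the pool of free auxin and act as a brake on the response. WES1, also named GH3.5, can also act on salicylic acid in Arabidopsis, and GH3 genes are widely read as reporters of auxin signalling when cytokinin and auxin meet.

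WES1 had signals of 241.0 and 248.3 units in Col-0 with solvent, 223.0 and 505.3 units after 15 min of BA, and 778.3 and 852.3 units after 120 min. Both arrays at 120 min lay above all 11 other arrays, and the share of all probe sets that did so was not counted. The arrays at 15 min did not move as a pair, since array 1 lay below both solvent arrays and array 2 above them. In 35S::CKX1 seedlings WES1 had 165.6, 167.7, 382.7 and 209.4 units after 15 min of BA, against 171.6, 155.4 and 741.9 units with solvent. Array 3 was the high one in both of these groups, and the groups overlapped.

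GH3.3 had 76.0 and 51.1 units in Col-0 with solvent, 51.5 and 45.0 units after 15 min of BA, and 122.2 and 144.3 units after 120 min. As for WES1, both arrays at 120 min lay above all 11 others, a separation not counted over all probe sets. In 35S::CKX1 it had 46.5, 50.9, 36.9 and 55.3 units after 15 min of BA, against 41.0, 65.3 and 19.2 units with solvent. Array 3 was here the low one in both groups, the opposite of WES1.

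**Figure D1:**
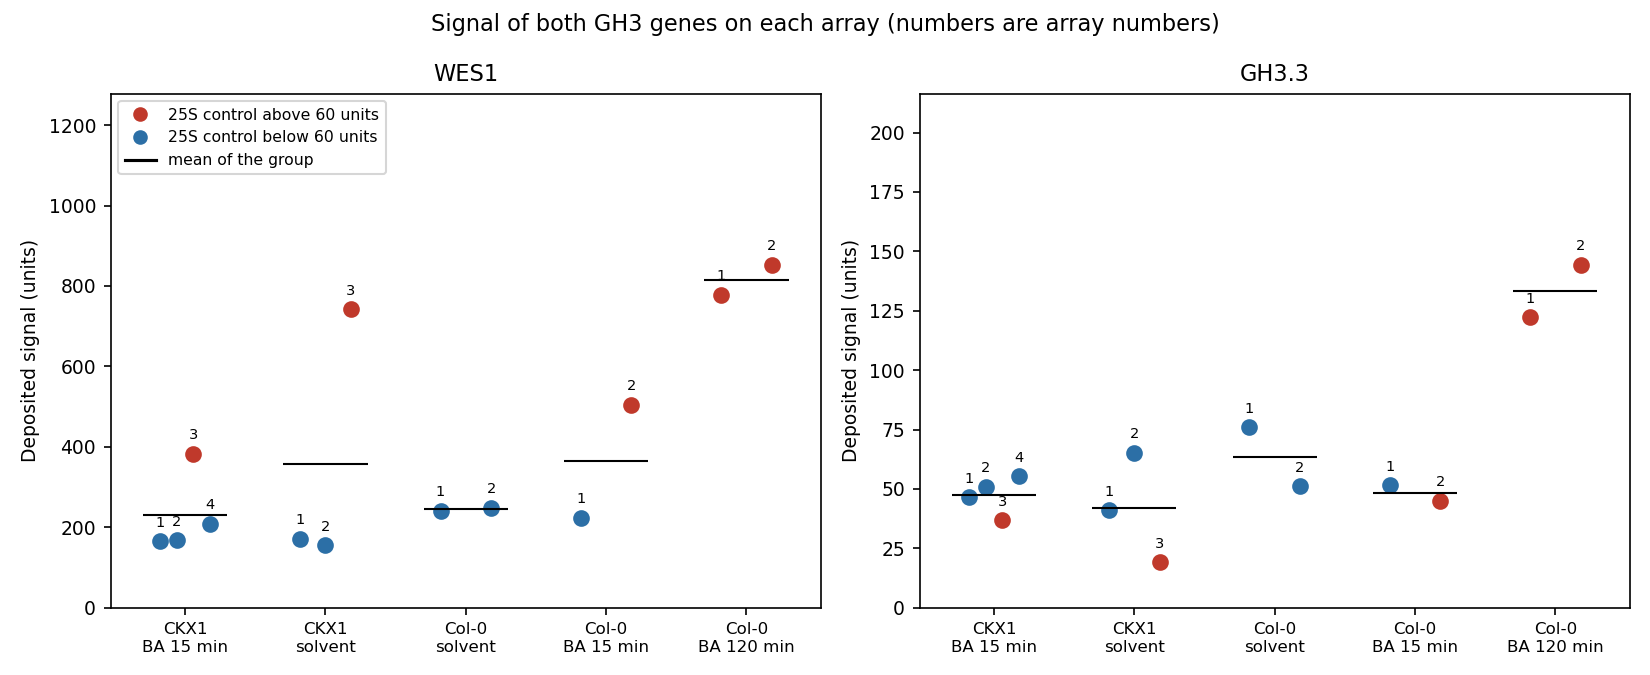
Deposited signal (units, linear axis) of WES1 (left) and GH3.3 (right) on each array, by group, with the array number above each point, red for arrays whose 25S ribosomal RNA control exceeded 60 units and blue for the rest, and a line at each group's mean. For both genes the 2 Col-0 arrays at 120 min are the highest, but for WES1 all 5 red arrays lie above all 8 blue ones.

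The libraries did not all behave alike. A control probe set for 25S ribosomal RNA read 92.5 to 803.7 units on 5 arrays and 2.4 to 46.2 units on the other 8. In Col-0 the high ones were array 2 of the 15 min treatment and the pair at 120 min, with no solvent array among them. In 35S::CKX1 they were array 3 after BA and array 3 with solvent. The ratio of 3′ to 5′ GAPDH signal, a sign of RNA quality, was 0.853 to 1.41 on the high arrays and 0.558 to 1.2 on the low ones. The ubiquitin ratio was 1.84 to 3.37 on the high arrays and 2.05 to 2.55 on the low ones. Array medians were 30.5 to 32.9 units on the high arrays and 31.6 to 39.5 units on the low ones. Summed signals of the root markers with a probe set (4 of 10) were 2768.1 to 3793.6 units in CKX1 after BA and 3507.9 to 3956.2 units in CKX1 with solvent. The same sum was 3521.0 to 3690.5, 2530.4 to 2747.5 and 3575.9 to 4078.2 units in Col-0 with solvent, at 15 min and at 120 min. PYK10, a beta-glucosidase abundant in roots, made up most of this sum, with 3350.9 and 3862.6 units in Col-0 at 120 min against 3163.2 and 3267.4 units with solvent. The dimmer root markers were not level. EXPA7, an expansin of root hairs, had 39.8 and 32.6 units at 120 min against 135.9 and 163.0 units with solvent (log2 fold change −1.95, limma unadjusted p = 0.00436, adjusted p = 0.207). EXPA18, another root hair expansin, had 63.5 and 67.4 units against 174.0 and 221.7 units (−1.54, limma unadjusted p = 0.0177, adjusted p = 0.306). AT1G62500 had 121.7 and 115.6 units against 47.9 and 38.4 units (1.40, limma unadjusted p = 0.028, adjusted p = 0.343). On Col-0 15 min array 2, also high in 25S signal, EXPA7, EXPA18 and AT1G62500 read 40.4, 64.3 and 197.1 units.

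The only shoot marker with a probe set (1 of 9), LHCB4.1, read 4750.7 to 6381.2 units in CKX1 after BA, 4089.9 to 5278.3 in CKX1 with solvent, and 4233.5 to 4977.9, 3940.7 to 6257.7 and 6267.2 to 8940.2 in Col-0 with solvent, at 15 min and at 120 min. No marker was at 0, and the part of tissue make-up in the results was not tested. In bulk seedlings, fewer cells of a type and less RNA per cell cannot be told apart.

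WES1 divided the arrays exactly as the 25S control did when split at 60 units, a limit chosen after the data were seen. Its signals were 382.7 to 852.3 units (median 741.9) on the 5 arrays of high 25S signal and 155.4 to 248.3 units (median 190.5) on the 8 of low 25S signal. GH3.3 did not, with 19.2 to 144.3 units (median 45.0) on the high arrays and 41.0 to 76.0 units (median 51.3) on the low ones. Among the high arrays GH3.3 stood at 122.2 and 144.3 units in Col-0 at 120 min and at no more than 45.0 units in the other 3. Within that class WES1 did not rise with the 25S signal throughout. Its lowest value there, 382.7 units, was on the array of highest 25S signal, 803.7 units. The share of all probe sets that divide the arrays by 25S class as WES1 did was not counted.

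**Figure D2:**
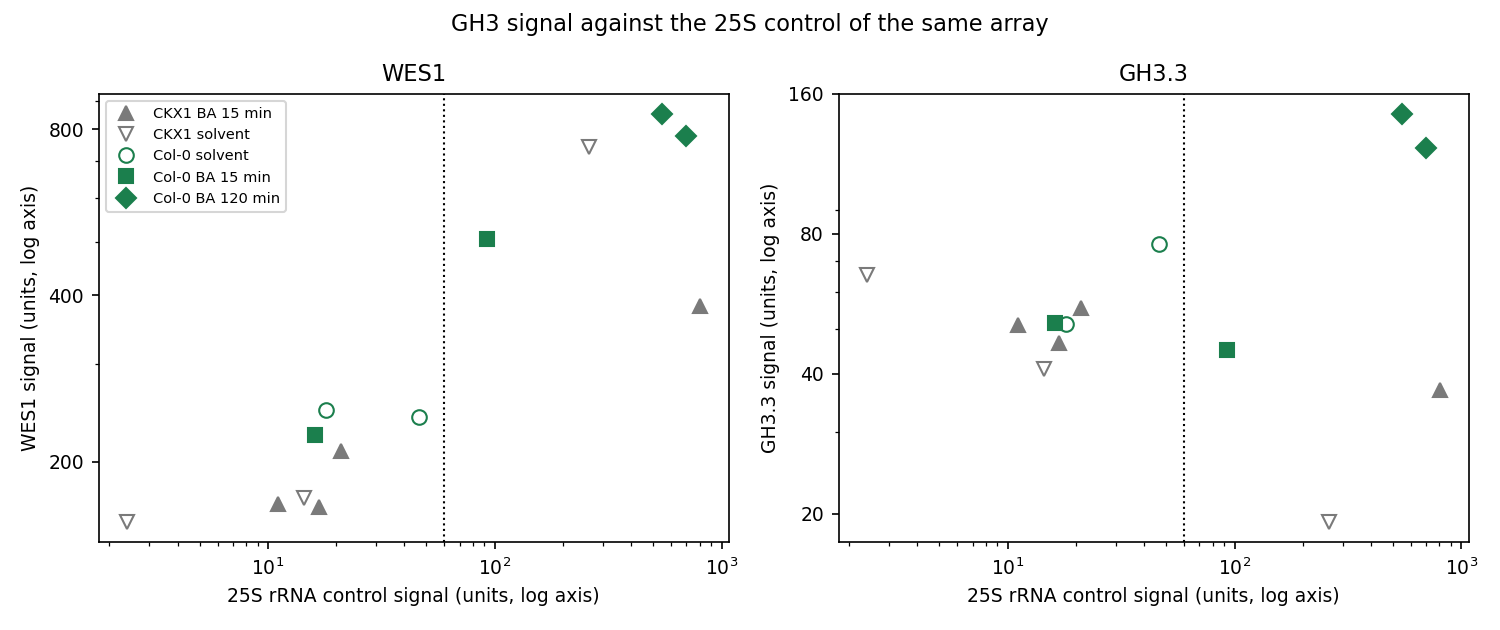
Signal of WES1 (left) and GH3.3 (right) against the 25S ribosomal RNA control of the same array (units, both axes log), by group, with a dotted line at 60 units. WES1 is above 380 units in every array right of the line, while right of the line GH3.3 is above 100 units only in the 2 Col-0 arrays at 120 min.

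The first comparison asks whether 120 min of cytokinin alters the auxin-conjugating genes in wild type. WES1 averaged 815.3 ± 52.3 units after 120 min of BA and 244.7 ± 5.16 units with solvent (SD, n = 2 each), a ratio of means of 3.33. GH3.3 averaged 133.3 ± 15.6 units after BA and 63.6 ± 17.6 units with solvent (n = 2 each), a ratio of 2.1. On the log2(signal + 3.39 units) scale the fold changes were 1.72 (SE 0.67, 95% interval 0.26 to 3.19) for WES1 and 1.05 (SE 0.44, 0.095 to 2.01) for GH3.3, beside a median of −0.11 over all tested probe sets.

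Neither gene passed at 120 min when p-values of limma were adjusted over all probe sets with the Benjamini-Hochberg method. WES1 had an unadjusted limma p of 0.0251 (adjusted p = 0.333) and GH3.3 had 0.0339 (adjusted p = 0.354). The adjusted threshold of 0.05 was passed by 6 of 15922 probe sets (0.0377%) in this comparison. Higher after BA at an unadjusted p under 0.05 were 2 of the 2 genes, against 4.9% of all tested probe sets. The lower BA array exceeded the higher solvent array in 2 of the 2 genes and in 26.3% of all tested probe sets. Both genes were chosen with earlier results of these data known, so these shares are a description and no test of the pair. Whether arrays of a group stem from separate cultures is not stated, so the spread behind these p-values may be technical.

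The 25S class of the arrays moved with this comparison, since both Col-0 arrays at 120 min were high and both with solvent were low. With the class as a term in limma, which takes its size from the groups that held both classes, WES1 had a log2 fold change of 0.24 (SE 0.36, adjusted p = 0.835) and GH3.3 had 1.71 (SE 0.42, unadjusted p = 0.00155, adjusted p = 0.140). Class and treatment cannot be told apart between these 2 groups themselves. Whether WES1 passed depended on the model, since it did so in 6 of 28 alternatives, each with the same log2 fold change of 1.72. The number of all probe sets that passed also varied over these alternatives, from 0 to 3672.

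**Figure D3:**
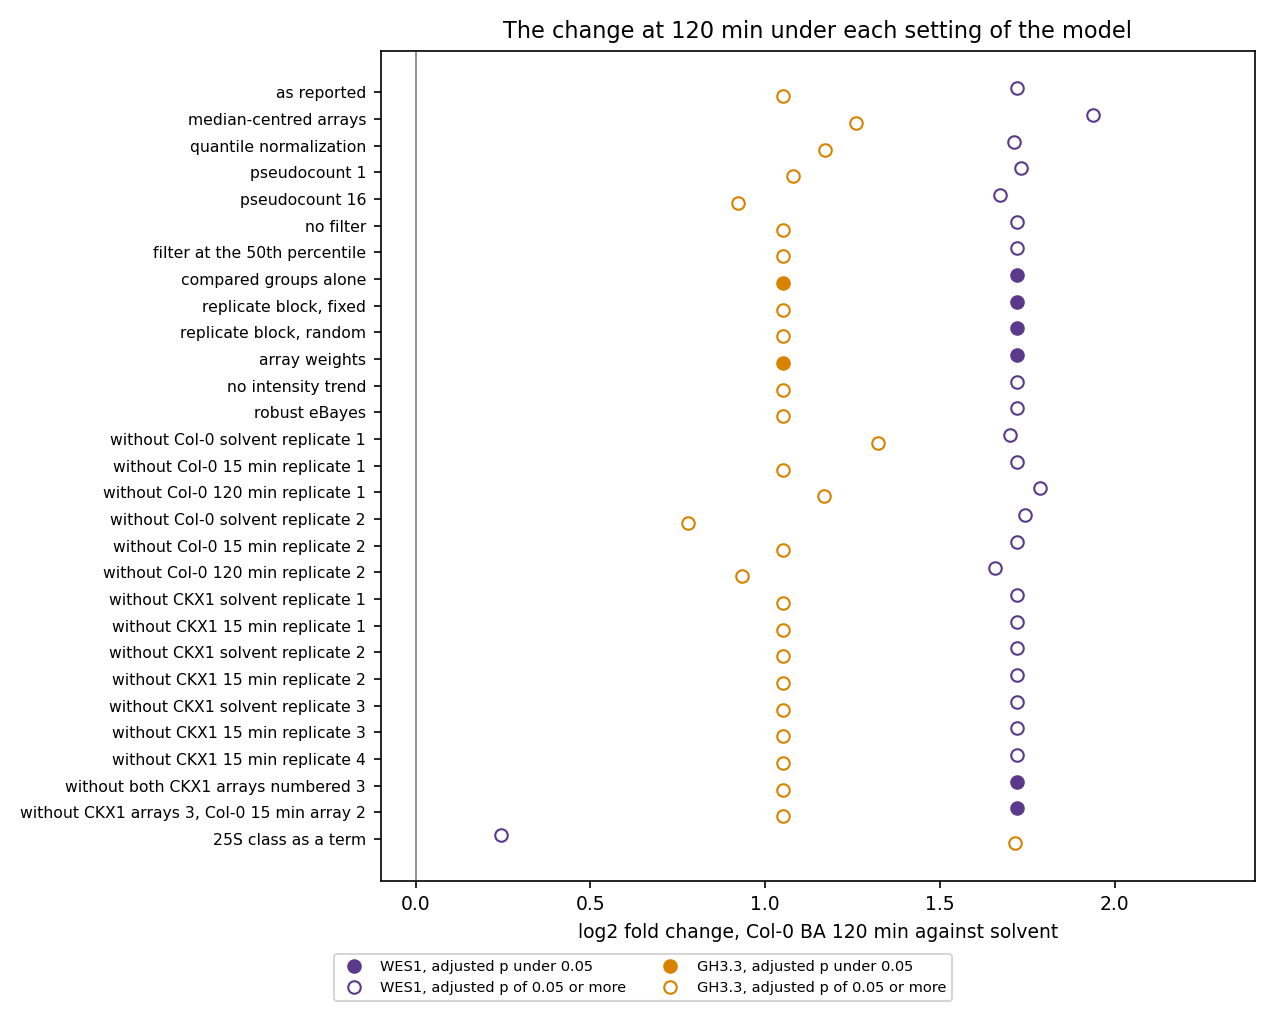
Log2 fold change of WES1 (purple) and GH3.3 (orange) in Col-0 after 120 min of BA against solvent, under each setting of the model (rows), filled where the limma adjusted p was under 0.05. GH3.3 stays between 0.78 and 1.71 in all rows, whereas WES1 is between 1.66 and 1.94 in all rows but the last, where the 25S class is a term and it is 0.24.

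The second comparison asks whether the values at 120 min had already been reached at 15 min. GH3.3 averaged 133.3 ± 15.6 units at 120 min and 48.3 ± 4.60 units at 15 min (SD, n = 2 each), a ratio of 2.76. Its log2 fold change was 1.40 (SE 0.44, 95% interval 0.45 to 2.36). Its unadjusted limma p was 0.00776 and its adjusted p 0.694, in a comparison where 0.0188% of probe sets passed. WES1 averaged 815.3 ± 52.3 units at 120 min and 364.2 ± 199.6 units at 15 min (n = 2 each), and the log2 fold change was 1.27 (SE 0.67, interval −0.20 to 2.73, adjusted p = 0.946).

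At 120 min both arrays lay above both 15 min arrays for 2 of the 2 genes, which held for 17.8% of all tested probe sets. At an unadjusted p under 0.05, 1 of the 2 genes was higher at 120 min, against 1.92% of all tested probe sets. Here too the shares are a description, since the genes were chosen with earlier results known. Within the arrays of high 25S signal, GH3.3 had 122.2 and 144.3 units at 120 min against 45.0 units in Col-0 15 min array 2, a log2 difference of 1.49 without a test. WES1 had 778.3 and 852.3 units against 505.3 units in that array, a difference of 0.69. With the 25S class as a term, GH3.3 had 1.73 (SE 0.36, limma adjusted p = 0.0739) and WES1 had 0.53 (SE 0.31, adjusted p = 0.631).

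The third comparison concerns the early response of wild type. After 15 min of BA WES1 averaged 364.2 ± 199.6 units, against 244.7 ± 5.16 units with solvent (SD, n = 2 each). The log2 fold change of WES1 was 0.45 (SE 0.67, 95% interval −1.01 to 1.92). GH3.3 averaged 48.3 ± 4.60 units after BA and 63.6 ± 17.6 units with solvent, a log2 fold change of −0.35 (SE 0.44, interval −1.31 to 0.60). Both had an adjusted limma p of 1.00, and 0% of probe sets passed. The value of WES1 rested on array 2, without which it was −0.13. The intervals leave room for a change of over 2-fold in either direction for WES1 and of over 2-fold downward for GH3.3.

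In 35S::CKX1 seedlings 15 min of BA gave no difference in either gene beyond the spread between arrays. WES1 averaged 231.4 ± 102.9 units (SD, n = 4) after BA and 356.3 ± 334.0 units (n = 3) with solvent. Its log2 fold change was −0.31 (SE 0.51, 95% interval −1.43 to 0.80). GH3.3 averaged 47.4 ± 7.87 units (n = 4) after BA and 41.8 ± 23.1 units (n = 3) with solvent, a log2 fold change of 0.30 (SE 0.33, interval −0.43 to 1.03). Without a block both had an adjusted limma p of 1.00, in a comparison where 0.00628% of probe sets passed. The intervals of both genes leave room for a change in either direction.

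Both signs in 35S::CKX1 turned without solvent array 3, to 0.41 for WES1 and −0.13 for GH3.3. Among the arrays of low 25S signal WES1 had 165.6, 167.7 and 209.4 units after BA, against 171.6 and 155.4 units with solvent, a log2 difference of 0.14 (SE 0.21). GH3.3 had 46.5, 50.9 and 55.3 units after BA, against 41.0 and 65.3 units with solvent, a difference of −0.028 (SE 0.29). Between the arrays numbered 3, both of high 25S signal, WES1 had 382.7 units after BA and 741.9 units with solvent, and GH3.3 had 36.9 and 19.2 units. Averaged over both genotypes, the log2 fold change at 15 min was 0.069 (SE 0.42) for WES1 and −0.028 (SE 0.28) for GH3.3, each with an adjusted limma p of 1.00 (0.0188% of probe sets passed).

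The next comparisons ask whether the overexpressor, which degrades its cytokinin, differs from wild type with solvent and after 15 min of BA. With solvent WES1 averaged 356.3 ± 334.0 units in 35S::CKX1 (SD, n = 3) and 244.7 ± 5.16 units in Col-0 (n = 2), a log2 difference of 0.15 (SE 0.61, 95% interval −1.19 to 1.48, limma adjusted p = 0.979). GH3.3 averaged 41.8 ± 23.1 units in 35S::CKX1 and 63.6 ± 17.6 units in Col-0, a difference of −0.68 (SE 0.40, interval −1.55 to 0.19, adjusted p = 0.897). In this comparison 0.0126% of probe sets passed. The positive value of WES1 rested on CKX1 solvent array 3. Without that array, which read 741.9 units, it was −0.57. The value of GH3.3 was −0.25 without the same array and −1.05 without CKX1 solvent array 2.

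After 15 min of BA WES1 averaged 231.4 ± 102.9 units in 35S::CKX1 (n = 4) and 364.2 ± 199.6 units in Col-0 (n = 2), a log2 difference of −0.62 (SE 0.58, 95% interval −1.89 to 0.65, limma adjusted p = 0.761). GH3.3 averaged 47.4 ± 7.87 units in 35S::CKX1 and 48.3 ± 4.60 units in Col-0, a difference of −0.035 (SE 0.38, interval −0.86 to 0.79, adjusted p = 0.984). Here 0.0188% of probe sets passed. Without Col-0 15 min array 2 the difference of WES1 was −0.036, and without array 1 it was −1.20.

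Within the arrays of low 25S signal, WES1 was lower in 35S::CKX1 than in Col-0 on every array, with 155.4 to 209.4 units (median 167.7, 5 arrays) against 223.0 to 248.3 units (median 241.0, 3 arrays). In limma fitted to these 8 arrays, the log2 difference was −0.57 (SE 0.23, unadjusted p = 0.0397, adjusted p = 0.814) with solvent and −0.31 (SE 0.27, adjusted p = 0.714) after BA. This split was chosen after the values were seen, and neither difference passed. How many of all probe sets separated the genotypes on these arrays was not counted. GH3.3 overlapped between the genotypes there, with 41.0 to 65.3 units in 35S::CKX1 and 51.1 to 76.0 units in Col-0.

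An interaction term in limma compared the 15 min responses of the genotypes. WES1 had −0.77 (SE 0.84, 95% interval −2.61 to 1.08) and GH3.3 had 0.65 (SE 0.55, interval −0.55 to 1.85), where a negative value means a lower response in 35S::CKX1. Both had an adjusted limma p of 1.00, and 0% of probe sets passed. Single arrays moved both values. That of WES1 was −0.047 without CKX1 solvent array 3, −0.18 without Col-0 15 min array 2 and −1.35 without Col-0 15 min array 1. That of GH3.3 was 0.22 without CKX1 solvent array 3 and 1.02 without CKX1 solvent array 2. In the 8 arrays of low 25S signal WES1 had 0.27 (SE 0.36). A 120 min treatment of 35S::CKX1 was not among the samples, so the later time was compared in wild type alone.

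**Figure D4:**
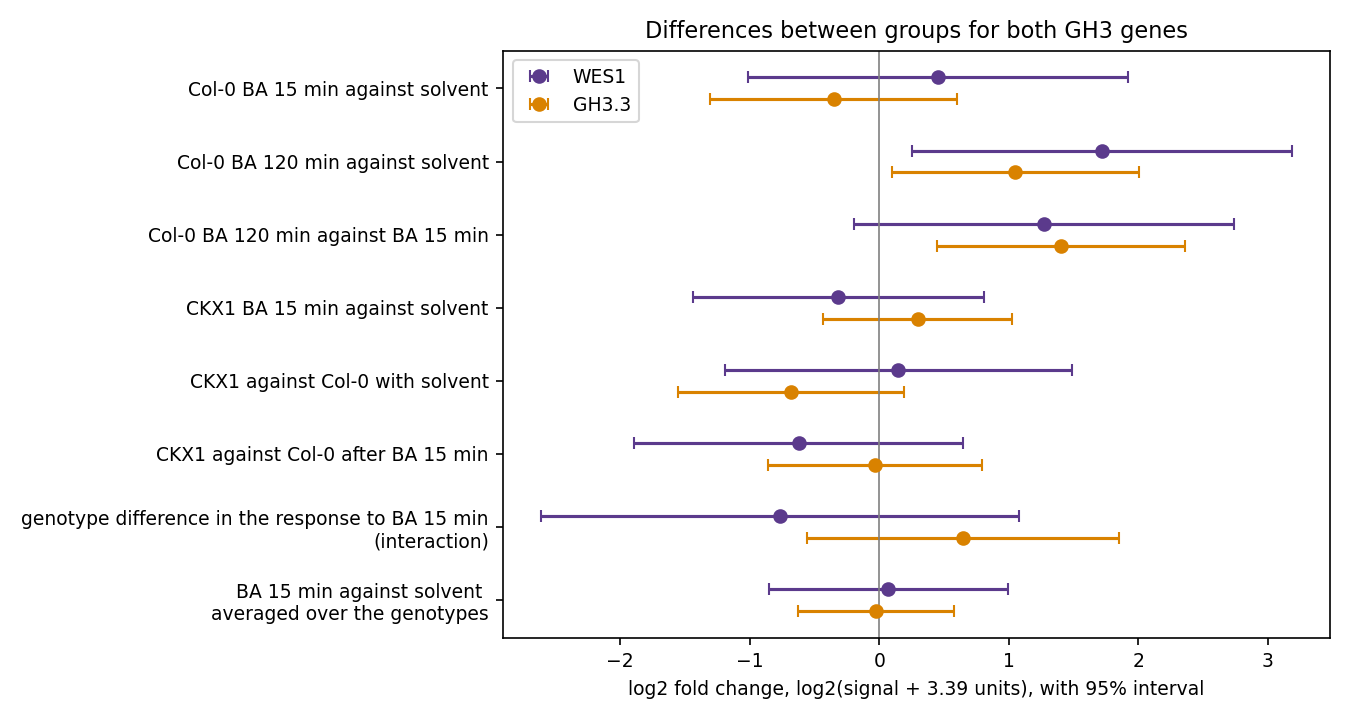
Log2 fold change (dots) with 95% interval (bars) of WES1 (purple) and GH3.3 (orange) in the 8 comparisons, on the log2(signal + 3.39 units) scale. The intervals that lie wholly above 0 are those of both genes at 120 min against solvent and of GH3.3 at 120 min against 15 min.

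Ordered by mean signal, WES1 stood at 815.3 units in Col-0 at 120 min, 364.2 in Col-0 at 15 min, 356.3 in CKX1 with solvent, 244.7 in Col-0 with solvent and 231.4 in CKX1 after BA. GH3.3 stood at 133.3, 63.6, 48.3, 47.4 and 41.8 units in Col-0 at 120 min, Col-0 with solvent, Col-0 at 15 min, CKX1 after BA and CKX1 with solvent. In both orders the arrays of the first group lay above those of the second, and each later pair of neighbours overlapped.

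The 2 genes shared their high point but not their spread within groups. Deviations of the log2 values from the group means correlated at r = −0.82 over the 13 arrays (Spearman's rho −0.58). The CKX1 arrays numbered 3 deviated most in WES1. When they were left out, with the group means still taken over all arrays, r was −0.55 (rho −0.30, n = 11). Those means include the arrays left out, so this value does not give the relation without them. Within genotypes r was −0.90 over the 7 CKX1 arrays and −0.28 over the 6 Col-0 arrays. Without the pair numbered 3, 5 CKX1 arrays remain, too few for a correlation. WES1 deviated by 1.44 on CKX1 solvent array 3 and by 0.81 on CKX1 15 min array 3, where GH3.3 deviated by −0.86 and −0.32. Deviations cancel within a group, and same-numbered CKX1 arrays deviate together, so these arrays are not independent and the correlations are a description without a p-value. WES1 signals fell into separate ranges by 25S class, so no correlation of the signals over all arrays is given. Within the 8 arrays of low 25S signal r was 0.32 (rho 0.24), and −0.036 without the 2 arrays farthest from the median of WES1.

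The genes whose log2 signals followed WES1 most closely over the 13 arrays also divided by 25S class. AKINBETA1, a regulatory subunit of the SnRK1 energy-sensing kinase, had r = 0.98, with 510.9 to 1245.9 units on the high arrays and 184.5 to 343.6 units on the low ones. The others were AT3G60980 (r = 0.98) and AT5G26740, AT2G20670 and AT2G40420 (each r = 0.97). In all 5 genes the high and low arrays did not overlap. They were picked for their likeness to WES1 on these same arrays, so their division adds nothing to that of WES1. How many of all probe sets divide in this way was not counted. An r over 0.9 with WES1 was found for 137 of 15921 probe sets.

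GH3.3 had fewer close companions, with 4 of 15921 probe sets at an r over 0.9. The closest by gene were AT2G01820 (r = 0.94), AT2G43200 (0.91), AT1G28100 (0.89), AT4G31880 (0.88) and EXPA16 (0.86), an expansin of the cell wall. EXPA16 read 164.1 and 205.6 units in Col-0 at 120 min and at most 44.9 units on all other arrays, including the others of high 25S signal. It was picked for likeness to GH3.3 on these same arrays, so it repeats the pattern of GH3.3. The share of all probe sets with this separation was not counted. These correlations describe 13 arrays that share groups and 25S class.

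Other auxin genes had changes of either sign at 120 min. The lists of auxin signalling, transport, synthesis and conjugation held 120 further loci. Of these, 23 had a probe set with 1 gene and 12 passed the filter on low signals, which lets a gene in through the groups where it is high. At 120 min against solvent, 0 of these 12 passed limma over all probe sets (lowest adjusted p = 0.0757). Only 0.0377% of all tested probe sets passed there, so this count says little about the 12 genes. An unadjusted limma p under 0.05 was found for 2, and 6 were positive and 6 negative. The matching shares of all probe sets, in either direction, were not counted. Their median log2 fold change was 0.0024, beside −0.11 over all probe sets. The auxin response factors, receptors, transporters and SAUR genes of the lists had no probe set that names 1 gene in the annotation used. They were not analysed here. That annotation left 8730 of 22746 probe sets without a gene, so the arrays may still measure them.

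Of the GH3 list of 13 loci, 7 had a probe set and 4 were tested. GH3.17, which conjugates auxin mainly to glutamate, had 154.3 and 185.1 units in Col-0 at 120 min, against 134.7 and 130.0 units with solvent, which gave a log2 fold change of 0.35 (SE 0.28, adjusted p = 0.657 in limma). GH3.9 had 14.3 and 15.1 units against 18.3 and 22.6 units, giving −0.39 (SE 0.54, adjusted p = 0.803 in limma), which turned to 0.32 with the 25S class as a term. GH3.1 was too dim to be tested, with 1.3 to 19.6 units over all arrays, as were AT1G23160 and AT5G51470. The highest signals of GH3.1 were 19.6 and 17.4 units in CKX1 with solvent and 16.8 and 16.4 units in Col-0 with solvent and at 15 min.

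Among Aux/IAA genes, the repressors of auxin signalling, 7 of 29 had a probe set and 3 were tested. IAA34 had a log2 fold change of 0.42 (SE 0.57), IAA33 had −0.050 (SE 0.41) and IAA18 had −0.086 (SE 0.37), with limma adjusted p-values of 0.804 to 0.974. The sign of IAA34 turned with the 25S class as a term (−0.31). Both negative signs turned with median-centred arrays (0.12 and 0.13) and quantile normalization (0.20 and 0.028). IAA29 fell under the filter and was not tested. It had 16.6 and 5.6 units in Col-0 with solvent, 7.7 and 45.0 units after 15 min of BA and 70.9 and 66.3 units after 120 min. In Col-0 its high arrays were those of high 25S signal, while CKX1 15 min array 3 and CKX1 solvent array 3, also high in 25S, read 6.7 and 2.2 units.

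Of the auxin synthesis genes, YUC2, a flavin monooxygenase of the main route to auxin, was the only tested one of 21. It had 81.1 and 57.6 units in Col-0 at 120 min, against at most 30.1 units on both arrays with solvent, and its log2 fold change was 1.1 (SE 0.54, adjusted p = 0.426 in limma). At 15 min it read 26.0 and 90.4 units, and the second of these, on array 2, was its highest signal of all. HAT2, an auxin-induced homeodomain transcription factor, had 0.56 (SE 0.30, adjusted p = 0.473), and LBD16, which acts in lateral root formation, had −0.26 (SE 0.42, adjusted p = 0.837), which turned to 0.52 with the 25S class as a term.

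The lowest p-values among the 12 other tested genes belonged to UGT74D1 and ARL. UGT74D1, a glucosyltransferase that attaches glucose to auxins, had 83.1 and 59.2 units in Col-0 at 120 min, against 344.5 and 242.5 units with solvent. Its log2 fold change was −1.99 (SE 0.36, limma unadjusted p = 0.00014, limma adjusted p = 0.0757). ARL, a relative of the organ growth gene ARGOS, had 823.9 and 878.2 units at 120 min against 193.7 and 240.6 units with solvent, a log2 fold change of 1.96 (SE 0.35, unadjusted p = 0.000133, adjusted p = 0.0757). Both kept most of their size with the 25S class as a term, at −1.68 (adjusted p = 0.130) and 1.58 (adjusted p = 0.125).

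AT1G14120, on the list of auxin conjugation and breakdown but without a symbol in the annotation, mirrored WES1. It read 4.4 to 17.2 units on the arrays of high 25S signal and 46.0 to 77.5 units on those of low 25S signal. Its log2 fold change at 120 min was −2.13 (SE 1.01, limma adjusted p = 0.409), and 0.24 with the 25S class as a term. Its neighbour on the list, AT1G14130, had 0.055 (SE 0.31, adjusted p = 0.960), which turned to −0.056 with that term.

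**Figure D5:**
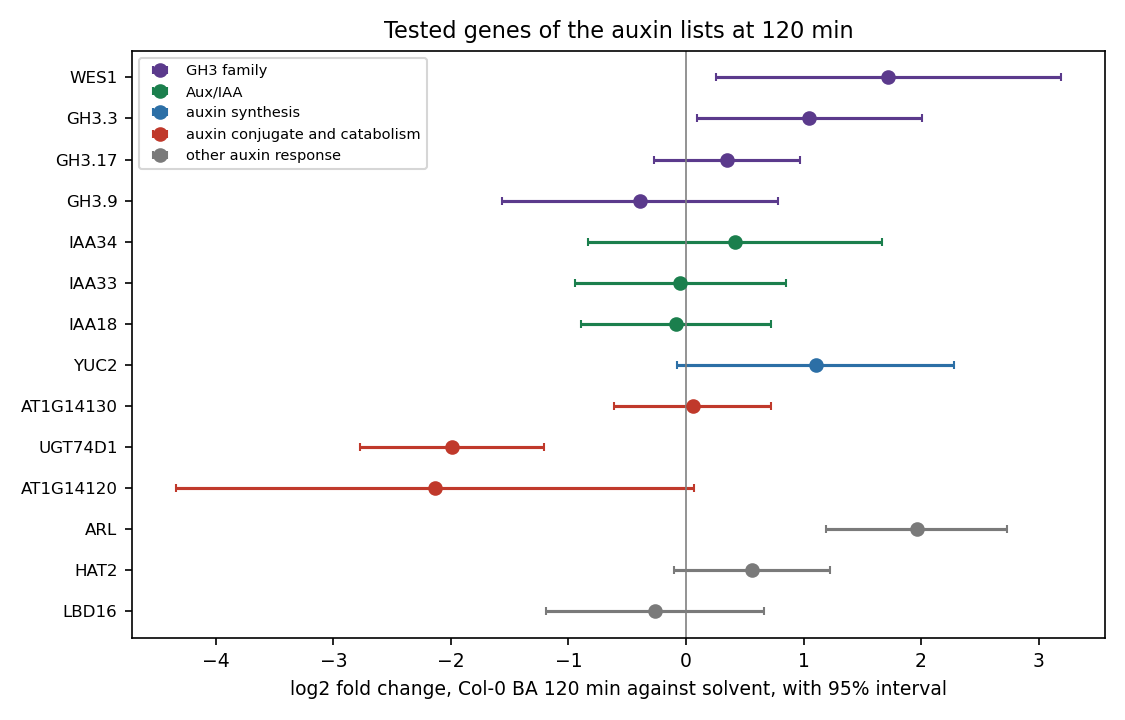
Log2 fold change (dots) with 95% interval (bars) in Col-0 after 120 min of BA against solvent for the 14 tested genes of the auxin lists, coloured by list. UGT74D1 at −1.99 and ARL at 1.96 have intervals clear of 0, as do WES1 and GH3.3, while GH3.17, GH3.9 and the Aux/IAA genes span 0.

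The labels of BA treatment were checked on the type-A response regulators, early cytokinin response genes, of which 2 of 10 had a probe set. ARR15 had 11.3 and 2.7 units in Col-0 with solvent, 119.8 and 57.8 units after 15 min of BA and 80.4 and 61.7 units after 120 min. ARR16 had 19.6 and 16.2 units with solvent, 68.3 and 31.1 units after 15 min and 67.0 and 84.1 units after 120 min. Col-0 120 min array 1, the one with the conflicting source label, read 80.4 and 67.0 units for ARR15 and ARR16, above both solvent arrays. Unlike GH3.3, both regulators were above the solvent arrays of Col-0 at 15 min, a separation not counted over all probe sets. At 120 min against solvent, 26.3% of all tested probe sets were higher without overlap. The difference in timing between GH3.3 and the regulators was not tested.

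In 35S::CKX1 the signals of ARR15 separated the groups and those of ARR16 did not. ARR15 had 20.9, 12.6, 14.3 and 36.6 units after 15 min of BA, against 3.3, 11.4 and 3.2 units with solvent. The groups did not overlap, but array 2 after BA was close to solvent array 2. The share of all probe sets without overlap was not counted here. ARR16 had 15.0, 37.2, 4.8 and 18.4 units after BA, against 4.4, 11.4 and 11.2 units with solvent, and array 3 after BA lay below both higher solvent arrays. The log2 fold changes in 35S::CKX1 were 1.40 (SE 0.46, limma unadjusted p = 0.0105) for ARR15 and 0.68 (SE 0.49, limma unadjusted p = 0.187) for ARR16, each with an adjusted p of 1.00. In Col-0 at 15 min they were 3.2 (SE 0.60) and 1.23 (SE 0.64). Neither regulator passed over all probe sets at 15 min in either genotype.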

How the data were processed

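The deposited table gives a normalized, linear signal intensity for each probe set in each of 13 arrays. Per the labels' protocols, RNA was extracted with TRIzol, converted to biotin-labelled cRNA and passed to an outside centre that normalized the values. The labels name neither the software nor the scaling target nor the dose of BA. Arrays were grouped by sample title.

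The 64 controls among 22810 probe sets were left out, as were those with a mean log2 value under the 30th percentile. Values under 1 were set to 1, and 3.39 units (0.1 of the table's median) were added before log2, so fold changes of dim probe sets are understated. One model covered the 13 arrays and 5 groups (limma 3.58.1 in R 4.3.3, intensity trend, 8 residual degrees of freedom, no block). Adjustment was by Benjamini-Hochberg per comparison, with a threshold of 0.05. Array signals carry no counts, so the number of arrays limits the precision.

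Arrays of the same number deviated together in CKX1 (correlations of deviations from group means 0.63, 0.58 and 0.73 across probe sets), so their numbers were taken as pairs and also fitted as a block, which gave no call of either gene there. The other alternatives concern scaling, pseudocount, filter, array weights, variance model, arrays left out and 25S class (split at 60 units, chosen after seeing the data).

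Genes were named from the platform annotation matched to RefSeq (13436 of 13513 probe sets with 1 gene). That annotation gave several genes for 503 probe sets and did not list 8730. A locus said to have no probe set may thus still be on the array. Named were both members, the auxin lists' genes, 2 type-A regulators and, per member, the 5 genes of highest r. A planned motif search was not run, as no promoter sequence was used here. Members and lists were chosen with earlier results of these data known.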

Additional observations from a re-analysis of the deposited data

Results flagged for a closer look

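Within the 4 CKX1 arrays at 15 min, 17 items were checked for an outlying array on the log2(signal + 3.39 units) scale. In 3 of them 1 array lay farther from the rest than Dixon's critical value of 0.829 for 4 samples allows. Chance gives about 1 in 20 for a single item, but the items share these arrays and are not independent. Values below are in units, a scale on which the count could differ. The 25S control read 803.7 units on array 3 and at most 21.0 units on the others. AT1G14120 read 4.4 units on the same array and at least 46.0 units on the others. IAA33 read 30.9 units on array 2 and at most 21.2 units on the others. WES1 (382.7 units on array 3) and GH3.3 (36.9 units on array 3) did not pass this limit.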

How the results depend on the processing

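Over the 28 alternatives at 120 min against solvent, 0 to 3672 probe sets passed the threshold, against 6 in the main fit. A pass of either gene is to be read beside that range. Both genes kept a positive value in all 28 alternatives. WES1 (1.72) passed limma over all probe sets in 6 of them, with the compared groups alone (1.72, adjusted p = 0.000236), with array weights (1.72, adjusted p = 0.00265), with the replicate block as a fixed (1.72, 0.0258) or random term (1.72, 0.0481), without both CKX1 arrays numbered 3 (1.72, 0.0387) and without these and array 2 of Col-0 at 15 min (1.72, 0.00184). GH3.3 (1.05) passed in 2, the compared groups alone (1.05, adjusted p = 0.0133) and array weights (1.05, 0.0112), and with the replicate block had adjusted p-values of 0.0842 and 0.076. Adjusted p-values over all alternatives were 0.000236 to 0.916 for WES1 and 0.0112 to 0.937 for GH3.3. At 120 against 15 min WES1 passed in 1 of 29 (1.85, adjusted p = 0.00733, without those 3 arrays) and GH3.3 in 0, where the value of 1.40 ranged from 1.21 to 1.73. In the other comparisons no alternative made either gene pass.

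Signs turned as follows. For WES1 in Col-0 at 15 min they turned with the 25S class as a term (−0.29) and in the arrays of low 25S signal or without those 3 arrays (−0.13 each), and leaving out single arrays gave −0.13 to 1.04. In CKX1 at 15 min WES1 was 0.14 without the CKX1 arrays numbered 3, with or without Col-0 15 min array 2, and in the arrays of low 25S signal, −0.95 in those of high 25S signal, and −0.71 to 0.41 without single arrays. GH3.3 was −0.028 in each of the same settings, 0.83 in the arrays of high 25S signal and −0.13 to 0.67 without single arrays. Between genotypes with solvent WES1 was −0.25 with array weights, −0.35 with the 25S class as a term, −0.57 without the CKX1 arrays numbered 3, without those 3 arrays and in the arrays of low 25S signal, and −0.57 to 0.54 without single arrays. After 15 min GH3.3 was 0.055 with median-centred arrays, 0.073 with quantile normalization, 0.12 with array weights and 0.072 without the CKX1 arrays numbered 3, and −0.13 to 0.072 without single arrays. Without single arrays the interaction ranged from −1.35 to −0.047 for WES1 and from 0.22 to 1.02 for GH3.3, and the genotype difference of GH3.3 with solvent from −1.05 to −0.25. The interaction of WES1 was 0.094 with the 25S class as a term and 0.27 in the arrays of low 25S signal or without those 3 arrays. Averaged over genotypes, WES1 was −0.24 and GH3.3 0.11 with the 25S class as a term, and without single arrays they ranged from −0.22 to 0.43 and from −0.24 to 0.16. The causes were not tested. The relation of both genes over arrays, r = 0.32 in the arrays of low 25S signal, was −0.036 without the 2 farthest arrays and −0.82 for deviations from the group means.

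At 120 min, IAA18 turned to 0.13 and 0.028 and IAA33 to 0.12 and 0.20 with median-centred and quantile-normalized arrays, and without single arrays IAA33 ranged from −0.17 to 0.070, AT1G14130 from −0.058 to 0.17 and LBD16 from −0.54 to 0.0081. With the 25S class as a term IAA34 was −0.31, AT1G14120 0.24, AT1G14130 −0.056, LBD16 0.52 and GH3.9 0.32. The median of the 12 other auxin genes was −0.00080 with a pseudocount of 1, −0.050 without both CKX1 arrays numbered 3, with or without array 2 of Col-0 at 15 min, and −0.050 to 0.027 without single arrays. The number of probe sets past the threshold depended on the setting, being 6 and 0 to 3672 at 120 min against solvent, 3 and 0 to 747 at 120 against 15 min, 0 and 0 to 3 in Col-0 at 15 min, 1 and 0 to 3 in CKX1, 2 and 1 to 17 between genotypes with solvent, 3 and 1 to 73 after 15 min, and 3 and 0 to 9 for the average. It stayed at 0 for the interaction (limma). Same-numbered Col-0 arrays were not shown to be pairs (correlations of deviations 0.11, −0.02 and 0.02), so their block is a description. The replicate block could not be fitted as a fixed term between genotypes, and the arrays of low 25S signal hold none at 120 min.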
